A study of Mus musculus with 9 samples.

Results

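The levels of 46 genes of DNA replication and cell division were followed in primary mouse articular chondrocytes that overexpressed OSCAR, with and without 5-aminosalicylic acid. They were picked by gene symbol, with no measured value in the rule: 12 S phase genes (*Mcm2* to *Mcm7*, *Pcna*, *Rrm1*, *Rrm2*, *Cdc6*, *Cdc45*, *Tyms*), 31 genes of G2 and mitosis (G2/M) and 3 regulators of the step from G1 into S phase (*Ccne1*, *Ccne2*, *E2f1*). All 46 were found among the 55471 genes of the files, and all 46 passed the filter on low counts that left 15362 genes for testing.

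The cells came from the knee cartilage (tibial plateaus and femoral condyles) of WT pups on postnatal day 5. OSCAR is an immunoglobulin-like receptor that binds collagen, and 5-ASA (mesalazine) is a drug used in inflammatory bowel disease. There were 3 groups of 3 cultures: Control, which per the methods carried the adenovirus Ad-Control and no drug; Ad-OSCAR, infected with an adenovirus that expresses OSCAR; and Ad-OSCAR + 5-ASA, given the same virus and then 10 µM of the drug, called the 5-ASA cultures below. All 9 cultures shared adenoviral infection, serum-containing medium and plates coated with COLpep, a collagen peptide that OSCAR binds, and none received IL-1β. Per the labels, infection lasted 2 h at an MOI (infectious units of virus per cell) of 400 after 3 days of culture, and the drug followed 36 h later. The methods give another MOI, time in culture and drug timing. No drug-treated Control group was analysed here, and nothing states which pups supplied which culture, so that p-values measure the spread between these cultures, which may be technical. In bulk RNA, fewer dividing cells and less of an mRNA per dividing cell cannot be told apart.

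Between 19733448 and 28192740 counts were assigned to genes per culture. *Oscar*, the overexpressed gene, went with the labels: Control had 3 to 4 counts of it, Ad-OSCAR 173445 to 187278 and the drug-treated group 80766 to 94199, with viral and cellular transcripts counted as one gene. The cells carried the markers of cartilage, but not evenly: 11 chondrocyte markers summed to 38781 to 44532 CPM (counts scaled to a common library size by TMM) in Control, 2390 to 2725 in Ad-OSCAR and 2851 to 3305 in the 5-ASA cultures, and 11 of 11 fell between Control and Ad-OSCAR. The 7 fibroblast markers summed to 13226 to 14079, 9588 to 10445 and 11694 to 12926 CPM in the same order, and 6 of 7 fell with OSCAR. Over all genes tested, 32.2% fell and 32.7% rose in that comparison at an adjusted p under 0.05. The 8 macrophage markers summed to 5.59 to 7.61, 13.1 to 14.0 and 11.7 to 11.9 CPM, with *C1qa* and *C1qb* at 0 in all 9 cultures, and 6 endothelial markers summed to 0.581 to 1.23, 4.51 to 5.53 and 2.23 to 2.73 CPM. The 5 osteoblast markers summed to 58.4 to 66.3, 10.3 to 14.9 and 24.3 to 26 CPM, whereas erythroid markers did not exceed 0.123 CPM and skeletal muscle markers did not exceed 1.68 CPM in sum. Only 3 macrophage, 2 endothelial and 3 osteoblast markers passed the filter on low counts. With OSCAR 2 of these macrophage markers and both endothelial ones rose, and the 3 osteoblast ones fell. The marker levels move with the groups compared below, and their part in the cell cycle values was not tested.

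As background, a cell that leaves G1 switches on E2F factors and cyclin E, which fire the genes that load and unwind replication origins and supply nucleotides. Late in S phase a second wave, driven by the MuvB complex with B-MYB and FOXM1, brings up the cyclins, kinases, motors and kinetochore proteins that carry the cell through mitosis. In cells at rest the DREAM complex (MuvB with a pocket protein and a repressor E2F) holds both waves down. Articular chondrocytes divide in the newborn joint and in culture, and rest in adult cartilage.

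The question of the first comparison is what OSCAR overexpression does to this programme. Of the 46 genes, 45 fell from Control to Ad-OSCAR at an adjusted p under 0.05 (edgeR's quasi-likelihood test, Benjamini-Hochberg over all genes tested) and 0 rose, by unadjusted p as well and with DESeq2. Over all genes tested, 32.2% fell and 32.7% rose in this comparison. With an absolute log2 fold change over 1.5 added to the call, 38 of 46 members fell, against 5.39% of all genes. The median log2 fold change was -3.21 over the 46 members, a 9.26-fold lower level, and 0.022 over all genes tested. In 45 of 46 members the highest Ad-OSCAR culture lay below the lowest Control culture, an order found in 34% of all genes. The one member outside this pattern was *Gtse1*.

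The fall was not of one size. The 31 G2/M genes had a median log2 fold change of -3.49 (11.3-fold lower), from -4.64 for *Mki67* to 0.07 for *Gtse1*, and 30 of 31 fell. The 12 S phase genes had a median of -1.58 (2.99-fold lower), from -3.31 for *Cdc6* to -0.46 for *Tyms*, and 12 of 12 fell, 7 of them past the fold limit of 1.5 on the log2 scale. The 3 G1/S regulators had a median of -1.43. Summed over its 31 genes, the G2/M level was 1199, 1282 and 1225 CPM in the Control cultures, 142, 145 and 144 CPM in the Ad-OSCAR cultures and 104, 109 and 113 CPM in the 5-ASA cultures. Summed over 12 genes, the S phase level was 568, 591 and 579 CPM, then 225, 220 and 227 CPM, then 193, 195 and 190 CPM. Both sums were separated between all 3 groups, with no overlap of cultures. The S phase sum divided by the G2/M sum was 0.474, 0.461 and 0.473 in Control, 1.58, 1.52 and 1.58 in Ad-OSCAR and 1.86, 1.78 and 1.68 with 5-ASA. CPM are not per transcript length, so only the differences of this ratio between groups can be read: it was higher in every OSCAR culture than in every Control culture. The difference between the S phase and G2/M genes is given as a description, with no test over the lists.

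**Figure D1:**
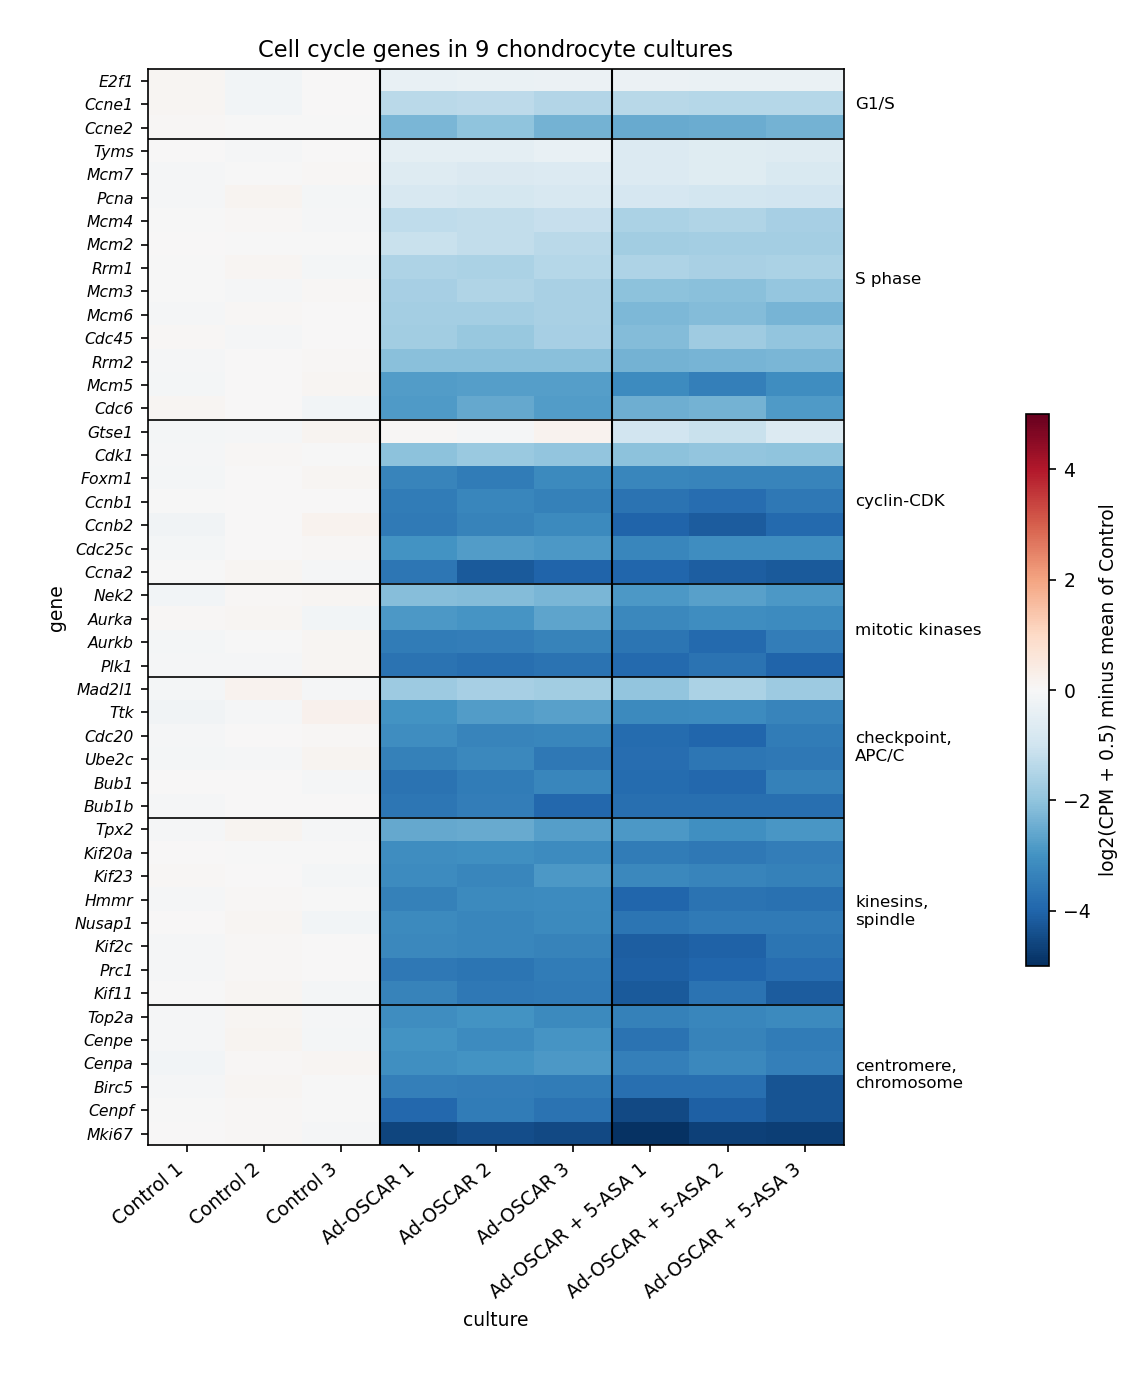
Level of the 46 genes (rows, grouped by role) in the 9 cultures (columns), as log2(CPM + 0.5) minus the gene's mean in Control, with blue for lower and red for higher. Rows of most G2/M genes are dark in all 6 OSCAR cultures and rows of most S phase genes are paler, *Cdc6* and *Mcm5* excepted. *Gtse1* is near white in Ad-OSCAR and blue only in the 5-ASA cultures.

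The genes of both waves share short words in their promoters, and these sequences are shown because S phase and G2/M genes fell by different amounts. RefSeq promoters (GRCm38.p6, 250 bases before to 50 after the start) were at hand for 38 of the 46 genes: 25 G2/M, 11 S phase and 2 G1/S genes. Both strands were searched for TTTGAA or TTCGAA (the cell cycle homology region, CHR, which MuvB contacts), CCAAT (which NF-Y binds) and TTTCGCGC, TTTGGCGC or GCGGGAA (E2F words). Of the G2/M genes 18 of 25 (72%) held a CHR word, as did 3 of 11 S phase genes (27.3%) and 21.7% of all 27025 genes in the table. An E2F word was found in 6 of 11 S phase genes (54.5%), in 1 of 25 G2/M genes (4%, *Cdk1*) and in 6.1% of all genes. CCAAT was common in both, at 21 of 25 (84%) and 9 of 11 (81.8%), against 41.1% of all genes. A CHR word and CCAAT together were found in 17 of 25 G2/M genes (68%) and 8.61% of all genes. Neither of the G1/S genes held any of these words in this window. The 200 bases upstream of the start are given for 7 genes, 5′ to 3′ on the strand of the gene, with CHR, CCAAT and E2F words of either strand in capitals. The first 4 are G2/M genes with a CHR word, the next 2 are S phase genes with overlapping E2F words, and the last is the first RefSeq start of *Gtse1*, which held no CHR word.
Mki67, chr7:135716380-135716579, minus strand: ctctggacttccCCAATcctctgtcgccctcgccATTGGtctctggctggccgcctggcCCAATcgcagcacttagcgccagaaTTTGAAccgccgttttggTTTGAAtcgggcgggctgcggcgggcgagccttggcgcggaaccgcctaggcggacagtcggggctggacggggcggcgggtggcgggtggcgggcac
Top2a, chr11:99024190-99024389, minus strand: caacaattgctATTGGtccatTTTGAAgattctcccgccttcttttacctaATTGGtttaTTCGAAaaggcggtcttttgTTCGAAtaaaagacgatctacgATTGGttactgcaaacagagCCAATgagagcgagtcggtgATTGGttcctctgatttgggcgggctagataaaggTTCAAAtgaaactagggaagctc
Ccnb2, chr9:70421555-70421754, minus strand: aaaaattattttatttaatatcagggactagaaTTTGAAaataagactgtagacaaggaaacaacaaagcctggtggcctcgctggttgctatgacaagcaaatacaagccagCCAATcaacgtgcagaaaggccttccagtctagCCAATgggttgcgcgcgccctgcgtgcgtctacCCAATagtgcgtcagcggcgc
Kif11, chr19:37376182-37376381, plus strand: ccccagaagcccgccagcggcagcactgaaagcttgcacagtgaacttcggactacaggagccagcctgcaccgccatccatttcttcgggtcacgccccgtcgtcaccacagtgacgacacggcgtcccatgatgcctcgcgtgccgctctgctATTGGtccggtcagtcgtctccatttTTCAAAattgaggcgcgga
Mcm5, chr8:75109309-75109508, plus strand: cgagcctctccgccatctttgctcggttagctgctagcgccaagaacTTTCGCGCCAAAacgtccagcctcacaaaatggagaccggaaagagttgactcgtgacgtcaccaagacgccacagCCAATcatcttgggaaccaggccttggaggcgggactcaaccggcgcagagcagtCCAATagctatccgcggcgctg
Mcm6, chr1:128359706-128359905, minus strand: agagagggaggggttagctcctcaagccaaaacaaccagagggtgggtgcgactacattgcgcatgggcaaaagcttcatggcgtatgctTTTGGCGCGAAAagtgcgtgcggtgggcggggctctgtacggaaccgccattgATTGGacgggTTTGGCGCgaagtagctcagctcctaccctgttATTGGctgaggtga
Gtse1, chr15:85859507-85859706, plus strand: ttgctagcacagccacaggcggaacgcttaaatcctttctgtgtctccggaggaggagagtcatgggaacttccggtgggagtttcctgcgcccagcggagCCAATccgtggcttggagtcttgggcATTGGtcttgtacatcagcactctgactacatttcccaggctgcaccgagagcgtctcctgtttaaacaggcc

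Within the G2/M genes, the 18 with a CHR word had a median log2 fold change of -3.61 from Control to Ad-OSCAR (from -4.64 to -2.0), and the 7 without one had a median of -3.18 (from -3.72 to 0.07). The ranges overlap. From Ad-OSCAR to the 5-ASA cultures the order was the opposite, at -0.41 with the word and -0.55 without. Within the S phase genes, the 3 with a CHR word had a median of -1.25 with OSCAR and the 8 without one a median of -1.67. The 6 S phase genes with an E2F word had a median of -1.67 and the 5 without one a median of -1.25. With 5-ASA these medians were -0.27 and -0.23. A word in the window is a description of the sequence and not a binding site.

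**Figure D2:**
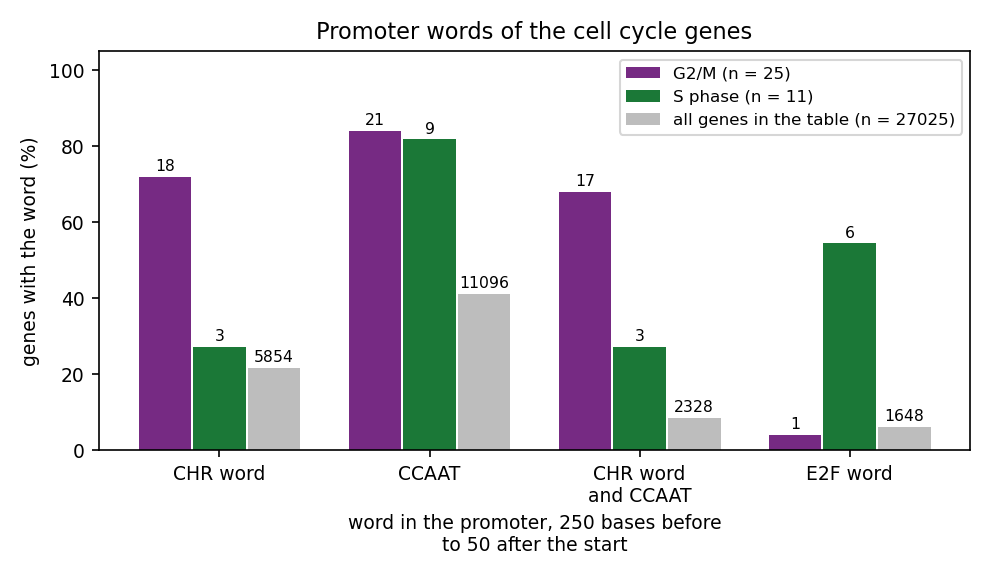
Percentage of genes (vertical axis) whose RefSeq promoter holds each word (horizontal axis), for the 25 G2/M genes, the 11 S phase genes and all 27025 genes in the table, with the number of genes above each bar. The CHR word stands at 72% in G2/M genes and 27.3% in S phase genes, and the E2F words at 4% and 54.5%.

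Among the proteins of mitotic chromosomes was *Mki67*, the member with the greatest fall. It encodes the proliferation antigen Ki-67, which coats these chromosomes, and was at 133, 136 and 124 CPM in Control, 4.99, 5.54 and 5.24 CPM in Ad-OSCAR and 3.81, 4.6 and 4.55 CPM with 5-ASA. Control lay far above the rest, and the Ad-OSCAR level was 4.0% of it (log2 fold change -4.64 ± 0.07 SE, n = 3 per group, edgeR adjusted p = 2.11e-19). *Top2a*, the topoisomerase that untangles sister chromatids, was at 143, 159 and 144 CPM in Control, 16.9, 18.3 and 16.0 CPM in Ad-OSCAR and 13.9, 15.1 and 15.8 CPM with 5-ASA. Its log2 fold change with OSCAR was -3.12 ± 0.06. *Cenpf*, a kinetochore protein of G2 and mitosis, was at 37.9, 39.7 and 38.1 CPM, then 2.04, 2.99 and 2.51 CPM, then 1.19, 1.79 and 1.46 CPM in the same order of groups. The 3 groups did not overlap, and the log2 fold change with OSCAR was -3.95 ± 0.11. *Cenpa* (the centromeric histone), *Cenpe* (a kinetochore motor) and *Birc5* (survivin, of the chromosomal passenger complex) completed this role with log2 fold changes of -3.23, -3.18 and -3.72, and 6 of its 6 genes fell.

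The engine of mitotic entry is CDK1 bound to A- and B-type cyclins. *Cdk1* was at 56.7, 60.8 and 58.4 CPM in Control, 13.8, 15.7 and 14.6 CPM in Ad-OSCAR and 13.9, 14.4 and 14.2 CPM with 5-ASA. It kept 25% of the Control level (log2 fold change -2.0 ± 0.06), the smallest fall of the 6 called genes in this role. By TPM, which is per transcript length, *Cdk1* was the most abundant of the 46 genes in Control, at a mean of 123 TPM, followed by *Pcna* at 82.9 and *Rrm2* at 78.5 TPM. Its cyclin partners fell further. *Ccna2* (cyclin A2) was at 58.7, 63.1 and 56.9 CPM in Control, 4.34, 2.79 and 3.24 CPM in Ad-OSCAR and 3.35, 2.95 and 2.73 CPM with 5-ASA, a log2 fold change with OSCAR of -4.09 ± 0.10. *Ccnb1* (cyclin B1) was at 41.0, 42.4 and 42.0 CPM, then 3.26, 3.94 and 3.60 CPM, then 2.73, 2.52 and 3.08 CPM, a log2 fold change of -3.54 ± 0.08. Both OSCAR groups lay below Control for each of these cyclins. *Ccnb2* (cyclin B2) was at 21.6, 24.6 and 27.3 CPM, then 1.63, 1.93 and 2.22 CPM, then 1.04, 0.876 and 1.19 CPM, with a log2 fold change of -3.67 ± 0.13 with OSCAR and no overlap between any of the 3 groups. *Foxm1*, the forkhead factor that drives the mitotic wave, was at 34.7, 37.4 and 39.8 CPM in Control, 3.36, 2.87 and 3.64 CPM in Ad-OSCAR and 3.46, 3.36 and 3.32 CPM with 5-ASA (log2 fold change with OSCAR -3.49 ± 0.09). *Cdc25c*, the phosphatase that activates CDK1, had the lowest counts of the module, 13 or more per culture in Ad-OSCAR and 7 or more with 5-ASA, and a log2 fold change with OSCAR of -3.76 ± 0.19.

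*Gtse1* stood apart. It encodes a microtubule-binding protein of G2 and S phase that also restrains p53. It was at 19.0, 19.6 and 22.2 CPM in Control and at 21.3, 19.6 and 22.7 CPM in Ad-OSCAR, so that the 2 groups overlapped (log2 fold change 0.07 ± 0.09, edgeR adjusted p = 0.516). With 5-ASA it was at 10.1, 9.05 and 12.5 CPM, below every other culture. Its log2 fold change from Ad-OSCAR to the 5-ASA cultures was -1.01 ± 0.10 (edgeR adjusted p = 1.15e-06), the largest of the 46 genes in that comparison.

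Among the mitotic kinases, *Plk1* was at 33.3, 33.4 and 36.5 CPM in Control, 2.17, 2.09 and 2.22 CPM in Ad-OSCAR and 1.88, 2.23 and 1.70 CPM with 5-ASA. Polo-like kinase 1 acts in centrosome maturation, spindle assembly and cytokinesis, and its log2 fold change with OSCAR was -3.99 ± 0.10. *Nek2*, a centrosome kinase, was at 15.7, 18.0 and 18.4 CPM, then 3.63, 3.49 and 3.16 CPM, then 1.96, 2.19 and 1.94 CPM, so that the groups formed 3 separate steps. Its fall with OSCAR, -2.34 ± 0.10, was smaller than that of *Plk1*, *Aurka* and *Aurkb*. *Aurka* and *Aurkb*, the Aurora kinases of spindle poles and of the centromere, had log2 fold changes of -3.05 and -3.81.

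The spindle assembly checkpoint and the anaphase-promoting complex decide when chromatids part. *Bub1b* (BubR1, a checkpoint protein) was at 29.3, 30.9 and 30.9 CPM in Control, 2.00, 2.30 and 1.53 CPM in Ad-OSCAR and 1.77, 1.79 and 1.74 CPM with 5-ASA, a log2 fold change with OSCAR of -3.97 ± 0.11. *Ube2c*, the ubiquitin-conjugating enzyme of the anaphase-promoting complex, was at 24.8, 25.4 and 29.2 CPM, then 2.07, 2.42 and 1.75 CPM, then 1.42, 1.68 and 1.74 CPM, a log2 fold change of -3.67 ± 0.11. For both genes all 6 OSCAR cultures lay below the Control cultures. *Bub1* (-3.91), *Cdc20* (-3.36) and *Ttk* (-3.27) fell to a like extent, whereas *Mad2l1*, which encodes the checkpoint protein MAD2, fell by 1.81 on the log2 scale, the smallest change among the 30 called G2/M genes.

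The motors and spindle proteins fell together, 8 of 8, with log2 fold changes from -3.72 to -2.68. *Kif11*, the kinesin that pushes spindle poles apart, was at 33.5, 35.8 and 31.6 CPM in Control, 2.85, 2.34 and 2.44 CPM in Ad-OSCAR and 1.35, 2.15 and 1.42 CPM with 5-ASA (log2 fold change with OSCAR -3.72 ± 0.11). *Prc1*, which bundles the microtubules of the central spindle, was at 65.9, 71.8 and 69.3 CPM, then 5.33, 5.08 and 5.67 CPM, then 3.65, 3.94 and 4.47 CPM (-3.68 ± 0.07). *Kif2c*, a kinesin that takes microtubules apart, was at 23.0, 24.4 and 23.7 CPM, then 2.07, 2.05 and 1.89 CPM, then 0.885, 0.948 and 1.42 CPM (-3.56 ± 0.11). In each of these 3 genes the groups did not overlap. *Kif20a* and *Kif23* (motors of cytokinesis), *Hmmr* and *Nusap1* (spindle-associated proteins) and *Tpx2* (the activator of Aurora A) had log2 fold changes of -3.20, -3.33, -3.42, -3.49 and -2.68.

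**Figure D3:**
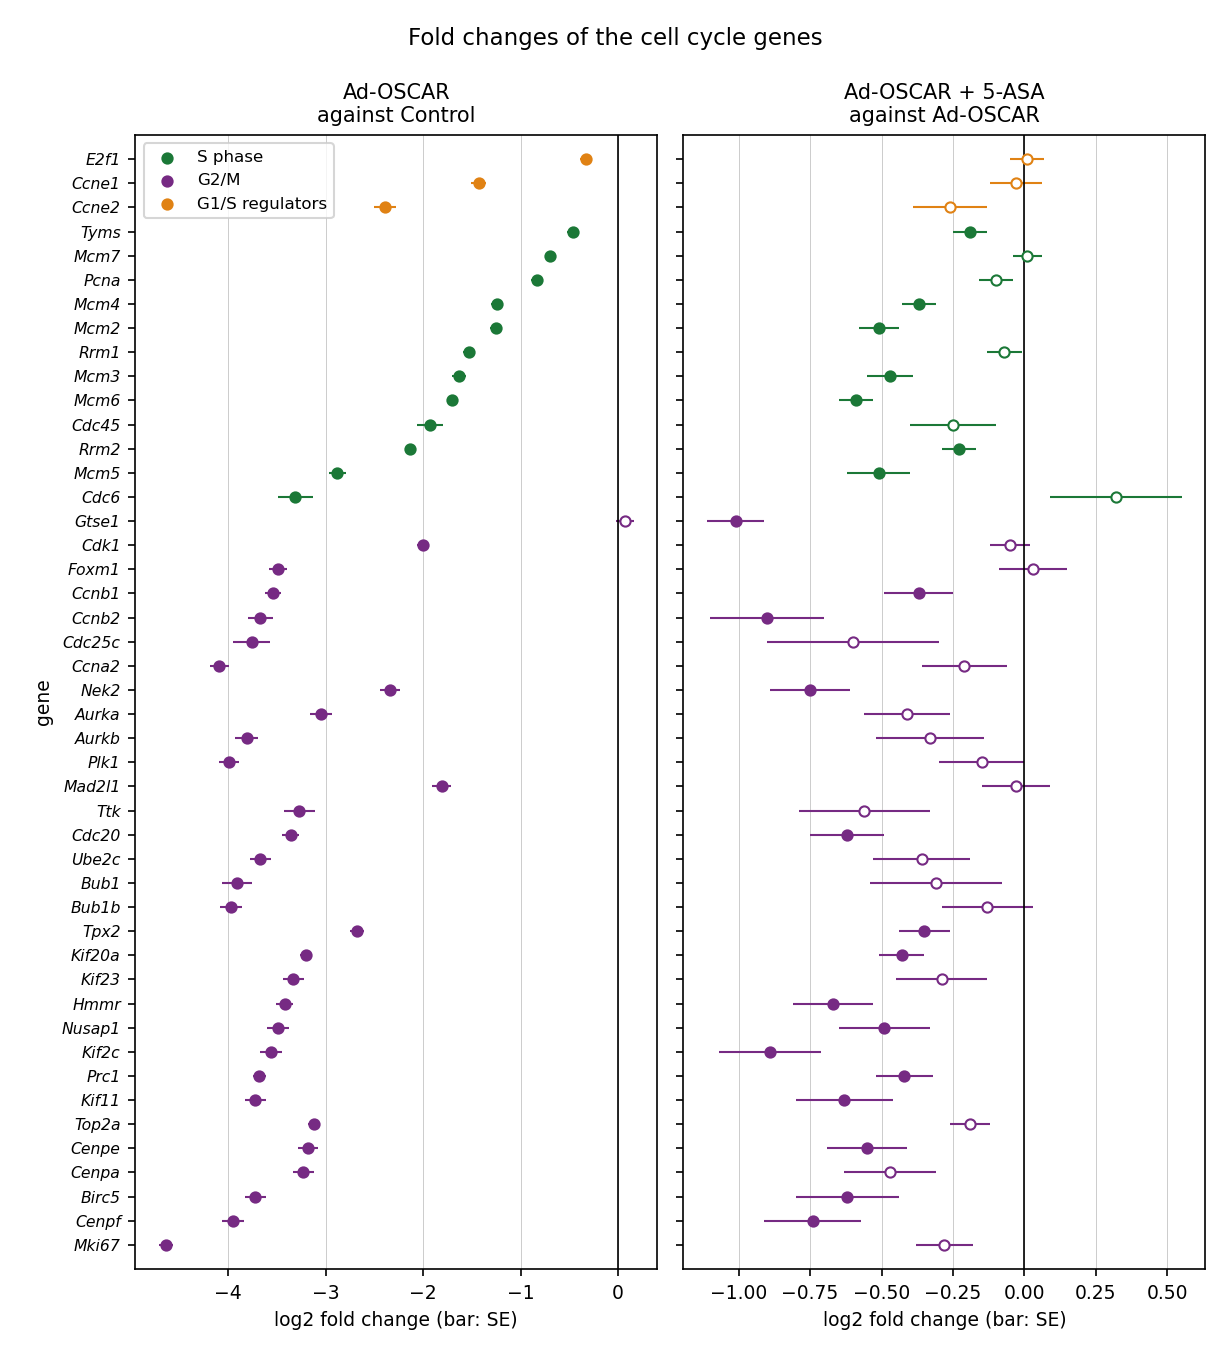
Log2 fold change (horizontal axis, bars are SE) of each of the 46 genes (vertical axis, in the order of the heat map) from Control to Ad-OSCAR on the left and from Ad-OSCAR to the 5-ASA cultures on the right, on scales that differ, with filled points for an adjusted p under 0.05 and colours for the phase. On the left most G2/M genes lie further from 0 than most S phase genes, and only *Gtse1* is open. On the right 22 points are filled, each below 0.

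By median, the S phase genes kept more of their level than the G2/M genes. *Cdc6* and *Mcm5*, at 10% and 13.5% of Control in Ad-OSCAR, kept less than *Cdk1* (25%) and *Mad2l1* (28.4%). *Pcna*, the sliding clamp of DNA polymerase, was at 62.3, 71.0 and 61.0 CPM in Control, 37.2, 35.1 and 36.9 CPM in Ad-OSCAR and 35.4, 33.9 and 32.8 CPM with 5-ASA, so that Ad-OSCAR had 56.1% of the Control level (log2 fold change -0.83 ± 0.06, edgeR adjusted p = 5.07e-10). The smaller falls in this phase were those of *Tyms* (thymidylate synthase) and *Mcm7*, at -0.46 ± 0.06 and -0.70 ± 0.05. *Mcm2* to *Mcm7* encode the 6 subunits of the replicative helicase, which act as 1 ring, yet they did not fall by 1 amount: *Mcm2* -1.25, *Mcm3* -1.63, *Mcm4* -1.24, *Mcm5* -2.88, *Mcm6* -1.70 and *Mcm7* -0.70, with SEs between 0.05 and 0.09. *Mcm2* was at 46, 43.9 and 44.8 CPM in Control, 20.2, 19.1 and 17.3 CPM in Ad-OSCAR and 13.1, 13.3 and 13.3 CPM with 5-ASA, 3 steps with no overlap. On the TPM scale, *Mcm7* had the highest mean level of the 6 subunits in Ad-OSCAR, 36.5 TPM, and *Mcm5* the lowest, 3.79 TPM, whereas in Control the 6 lay between 23.8 and 44.1 TPM. For *Mcm7* the mean transcript length that RSEM estimated was 2060 to 2365 bases in Control and 1688 to 1859 bases in Ad-OSCAR, and the effect of that change on its counts was not tested.

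*Cdc6*, which loads the helicase onto origins, fell furthest in the S phase group: it was at 9.30, 8.75 and 7.77 CPM in Control, 0.780, 1.03 and 0.800 CPM in Ad-OSCAR and 1.15, 1.28 and 0.790 CPM with 5-ASA (log2 fold change with OSCAR -3.31 ± 0.18). *Cdc45*, the helicase cofactor, fell by 1.93 on the log2 scale. The large and small subunits of ribonucleotide reductase, which makes deoxynucleotides, fell unequally, *Rrm1* by 1.53 and *Rrm2* by 2.13. *Rrm2* is the subunit whose level follows the cell cycle.

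At the G1/S step the 3 regulators spread widely. *E2f1* was at 35.4, 30.5 and 33.8 CPM in Control, 25.5, 26.6 and 27.1 CPM in Ad-OSCAR and 26.9, 25.9 and 26.6 CPM with 5-ASA, a log2 fold change with OSCAR of -0.33 ± 0.06 (edgeR adjusted p = 9.23e-05) and the smallest among the 45 called genes. *Ccne1* (cyclin E1) was at 24.2, 20.7 and 22.8 CPM, then 8.52, 8.73 and 7.78 CPM, then 8.23, 8.10 and 8.10 CPM (-1.43 ± 0.08). *Ccne2* (cyclin E2) was at 17.6, 16.6 and 16.9 CPM, then 3.12, 3.81 and 2.87 CPM, then 2.58, 2.66 and 2.89 CPM (-2.39 ± 0.11). In all 3 genes Control lay above both OSCAR groups, which overlapped.

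**Figure D4:**
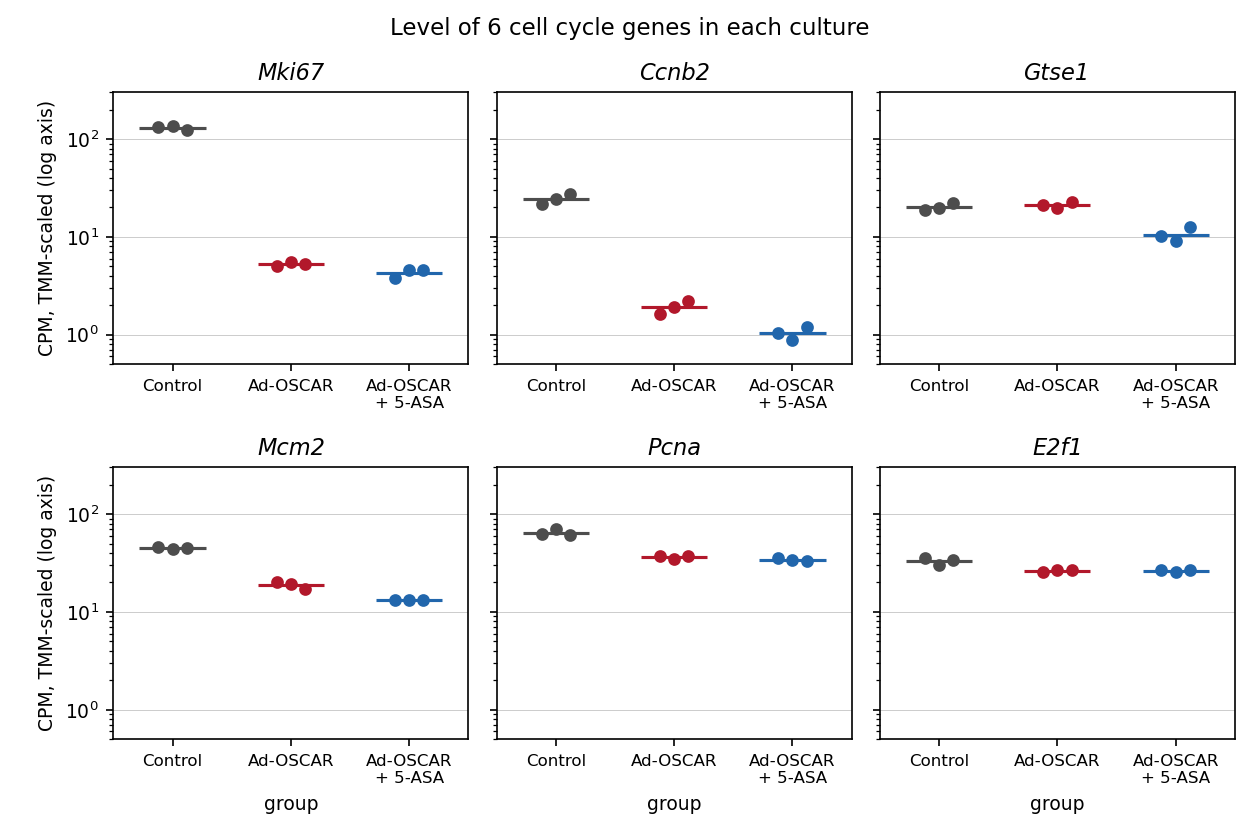
CPM, TMM-scaled, on a log axis, of 6 genes in each culture (points) with the mean of each group (line). *Mki67* drops from 124 to 136 CPM to 5.54 CPM or less, *Mcm2* and *Ccnb2* step down in both OSCAR groups in turn, *Gtse1* steps down only in the 5-ASA cultures, and *E2f1* stays between 25.5 and 35.4 CPM in all 9.

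The second comparison asks what 5-ASA changes in cells that overexpress OSCAR. It shares the Ad-OSCAR cultures with the first. Of the 46 genes 22 fell from Ad-OSCAR to the 5-ASA cultures and 0 rose, also by unadjusted p. Of all genes tested, 7.38% fell and 10.4% rose. With DESeq2, 19 fell and 0 rose. The median log2 fold change was -0.36 over the members (1.29-fold lower) and -0.004 over all genes. A total of 10 members were over 1.5-fold lower at an unadjusted p under 0.05, against 1.87% of all genes. In 29 members every 5-ASA culture lay below every Ad-OSCAR culture, against 16.1% of all genes, and in 0 members above, against 17.8%. *Oscar* itself was lower in the 5-ASA cultures, 2950 to 3720 CPM against 6350 to 7110 CPM in Ad-OSCAR, and the part of this difference in the fall of the cell cycle genes was not tested.

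By role, the motors and spindle proteins fell in 7 of 8 genes, with *Kif23* not called (-0.29 ± 0.16). *Kif2c* fell by 0.89 (± 0.18, edgeR adjusted p = 0.0018), *Hmmr* by 0.67, *Kif11* by 0.63, *Nusap1* by 0.49, *Kif20a* by 0.43, *Prc1* by 0.42 and *Tpx2* by 0.35 on the log2 scale. The call of *Kif11* was lost without Ad-OSCAR replicate 1, without 5-ASA replicate 1 or without 5-ASA replicate 3 (edgeR adjusted p up to 0.0947), that of *Tpx2* without Ad-OSCAR replicate 1 or 5-ASA replicate 2 (up to 0.0578), and *Nusap1* was called in 7 of 17 settings, DESeq2 not among them. Of the chromosome proteins 3 of 6 fell: *Cenpf* (-0.74 ± 0.17), *Birc5* (-0.62 ± 0.18) and *Cenpe* (-0.55 ± 0.14). *Birc5* was called in 14 of 17 settings, and not without Ad-OSCAR replicate 1, without 5-ASA replicate 3 or with these 2 groups alone (edgeR adjusted p up to 0.12). *Cenpe* lost its call without 5-ASA replicate 1 (edgeR adjusted p = 0.0602). *Mki67* had a log2 fold change of -0.28 ± 0.10 (edgeR adjusted p = 0.0683) and *Top2a* one of -0.19 ± 0.07 (edgeR adjusted p = 0.0835), and neither was called although their 5-ASA cultures lay below all Ad-OSCAR cultures.

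Of the cyclin-CDK genes 3 of 7 fell: *Gtse1* (-1.01), *Ccnb2* (-0.90 ± 0.20, edgeR adjusted p = 0.00478) and *Ccnb1* (-0.37 ± 0.12, edgeR adjusted p = 0.0398). That of *Ccnb1* did not hold with DESeq2 or in 8 other of 16 alternative settings. *Cdk1* (-0.05, 95% interval -0.21 to 0.11) and *Foxm1* (0.03, -0.27 to 0.33) were not called. *Nek2* was the 1 kinase of 4 that fell (-0.75 ± 0.14), and *Plk1* had a log2 fold change of -0.15 (95% interval -0.51 to 0.20). *Cdc20*, the activator of the anaphase-promoting complex, was the 1 gene of 6 in its role that fell (-0.62 ± 0.13). *Bub1b* and *Ube2c* were not called, at -0.13 (95% interval -0.52 to 0.26) and -0.36 (-0.78 to 0.07).

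In S phase the helicase carried the change. *Mcm2* to *Mcm6* fell, by 0.51, 0.47, 0.37, 0.51 and 0.59 on the log2 scale in that order (edgeR adjusted p from 3.2e-06 for *Mcm6* to 0.00443 for *Mcm5*), and *Mcm7* was at 0.01 (95% interval -0.12 to 0.15). *Rrm2* fell by 0.23 and *Tyms* by 0.19, the latter in 13 of 17 settings and not with DESeq2 or without Ad-OSCAR replicate 3, 5-ASA replicate 1 or 5-ASA replicate 3 (adjusted p up to 0.113). *Pcna*, *Rrm1*, *Cdc45* and *Cdc6* were not called, with log2 fold changes of -0.10, -0.07, -0.25 and 0.32. The 3 G1/S regulators were not called either, at 0.01 for *E2f1* (95% interval -0.14 to 0.15), -0.03 for *Ccne1* and -0.26 for *Ccne2*.

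Against Control, the 5-ASA cultures were lower in 46 of 46 genes (edgeR adjusted p under 0.05), and 0 were higher, while 31.8% of all genes tested fell and 31.4% rose. This comparison shares cultures with both others. The median log2 fold change was -3.98 for G2/M genes and -1.93 for S phase genes. Values ran from -4.92 ± 0.07 for *Mki67*, at 3.30% of the Control level, to -0.33 ± 0.06 for *E2f1*. *Gtse1* was at -0.94 ± 0.10 (edgeR adjusted p = 2.2e-07). In all 46 genes the highest 5-ASA culture lay below the lowest Control culture, an order found in 33.2% of all genes tested.

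Other genes of the cycle were read from lists that do not hold the members. Their counts stand against the shares of all genes tested, 32.2% lower and 32.7% higher with OSCAR, and 7.38% lower and 10.4% higher with 5-ASA. Of 50 other mitosis genes 49 fell from Control to Ad-OSCAR and 1 rose, with a median log2 fold change of -2.61. *Pbk* (a mitotic kinase), *Nuf2* (a kinetochore protein) and *Kif14* (a motor of cytokinesis) had the largest falls, with log2 fold changes of -4.45, -4.36 and -4.15. The 1 that rose was *Cks2*, a small CDK-binding protein, at 17.3, 20.1 and 18.6 CPM in Control, 49.0, 44.4 and 49.2 CPM in Ad-OSCAR and 28.2, 29.1 and 28.6 CPM with 5-ASA. Its 3 groups were separate, with log2 fold changes of 1.35 ± 0.06 and then -0.73 ± 0.06 (edgeR adjusted p = 1.31e-12 and 1.21e-07). Of 46 other replication genes 40 fell and 2 rose, with a median of -0.93. *Tk1* (thymidine kinase), *Clspn* (claspin, of the replication checkpoint) and *Pole* (the leading-strand polymerase) fell by 3.36, 3.08 and 2.91, and *Orc5* (origin recognition) and *Slbp* (histone mRNA processing) rose by 0.28 and 0.13. With 5-ASA, 13 of the 50 mitosis genes fell and 0 rose (21 fell and 0 rose at an unadjusted p under 0.05). Of the 46 replication genes 10 fell and 1 rose.

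Among other regulators of the cycle the directions were mixed. Of the 12 tested genes in the list of G1 cyclins, CDKs and phosphatases 10 fell and 2 rose with OSCAR. The list also holds genes of other steps, among them the G2/M regulators *Pkmyt1*, *Wee1* and *Cdc25b*. *Pkmyt1* (the CDK1-inhibiting kinase), *Cdc25b* and *Ccnd1* (cyclin D1) fell by 2.6, 1.75 and 1.58, and *Cdc25a* and *Cdk2* rose by 0.36 and 0.20. *Ccnd1* was then higher with 5-ASA than in Ad-OSCAR, by 0.28 ± 0.06 on the log2 scale (edgeR adjusted p = 0.00186). Of the 8 CDK inhibitors 1 rose, 6 fell and 1 was not called. The one that rose was *Cdkn1a* (p21, a target of p53), at 199, 202 and 205 CPM in Control, 586, 568 and 587 CPM in Ad-OSCAR and 429, 408 and 445 CPM with 5-ASA. It was separate in all 3 groups, at 1.52 ± 0.04 with OSCAR and -0.44 ± 0.04 with 5-ASA on the log2 scale (edgeR adjusted p = 1.53e-15 and 1.09e-06). *Cdkn1c* (p57, of growth plate chondrocytes) fell by 2.79 and stayed at 17.9 to 19.7 CPM with 5-ASA, against 110 to 134 CPM in Control. *Cdkn3*, a phosphatase of CDKs that mitotic cells express, fell by 4.13. *Cdkn2d*, *Cdkn2c*, *Cdkn2a* and *Cdkn1b* fell by 0.85, 0.57, 0.34 and 0.28, and *Cdkn2b* was at 0.12 (edgeR adjusted p = 0.0501).

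Of 18 E2F, pocket and DREAM/MuvB factors 8 fell, 1 rose and 9 were not called with OSCAR. Of all genes tested, 32.2% fell and 32.7% rose. The atypical repressors *E2f7* and *E2f8* and the activator *Mybl2* (B-MYB) fell by 3.88, 3.82 and 2.11, and *Rb1*, the retinoblastoma gene, rose by 0.80 from a mean of 22.1 ± 1.24 to 38.5 ± 3.13 CPM (SD, n = 3). Of 10 genes known to be raised in resting cells 5 rose and 4 fell, with a median of 0.02. *Btg2*, *Btg1* and *Foxo3* rose by 0.99, 0.90 and 0.42, and *Gas1*, *Tgfbr2* and *Pdgfra* fell by 1.28, 1.28 and 0.41. The genes of this list thus moved both ways. With 5-ASA 3 fell and 4 rose of the 12 cyclins, CDKs, phosphatases and other regulators, *Wee1* and *Cdc25b* among the falls. In the same comparison 2 fell and 2 rose of the 8 CDK inhibitors. The 18 E2F and DREAM/MuvB factors had 2 that fell and 0 that rose (1 at an unadjusted p under 0.05). Of the 10 resting-cell genes 3 fell and 1 rose.

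**Figure D5:**
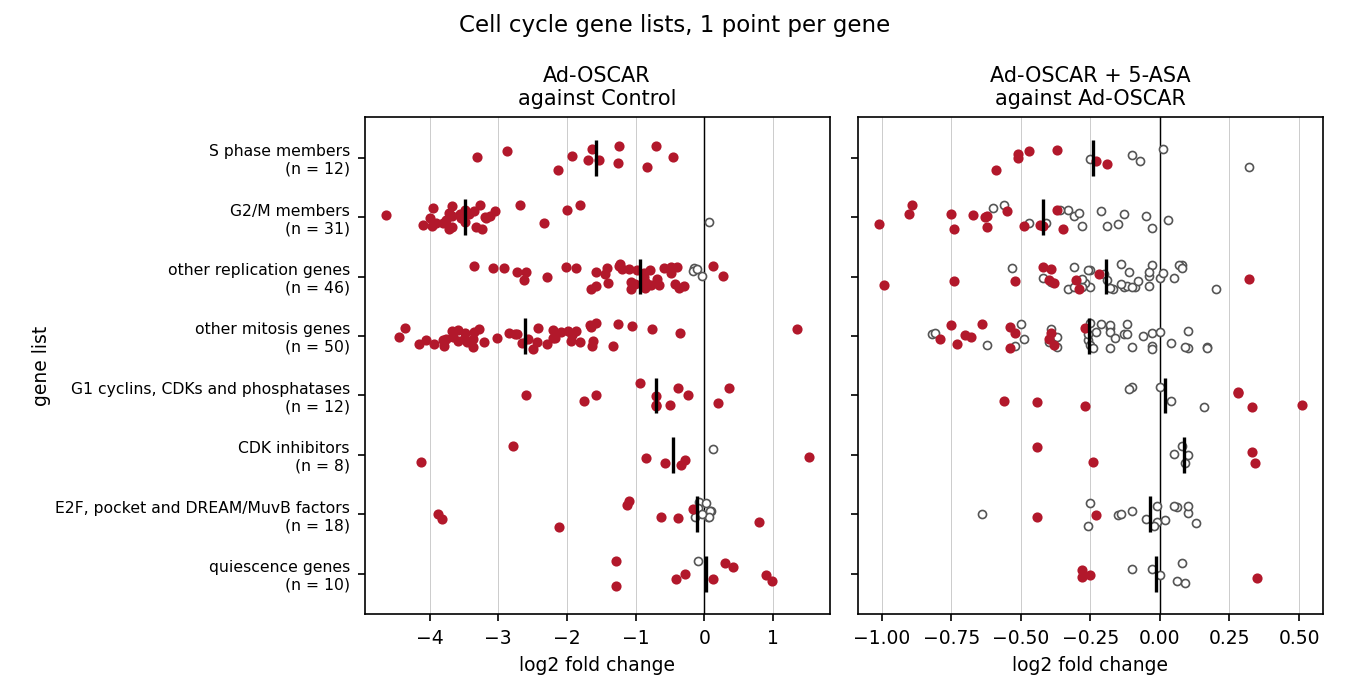
Log2 fold change (horizontal axis) of each gene, 1 point per gene, in the S phase and G2/M members and 6 other lists (vertical axis), from Control to Ad-OSCAR on the left and from Ad-OSCAR to the 5-ASA cultures on the right, with filled points for an adjusted p under 0.05 and a bar at each median. Medians on the left run from -3.49 for the G2/M members to 0.02 for the resting-cell genes.

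Some members share their locus with other genes, and reads there could be divided between them. The library kit keeps strand, but how RSEM was set for it is not given in the sources used here. Exons or introns of *Ccna2* and *Exosc9*, *Cdc20* and *Elovl1*, *Ube2c* and *Tnnc2*, *Nusap1* and *Oip5*, *Kif20a* and *Cdc23*, *Prc1* and *Rccd1*, *Cdc45* and *Ufd1*, *Ccne2* and *Ints8*, and *Mcm7* and both *Cops6* and *Ap4m1* lie on opposite strands of 1 stretch of the annotation, and *Foxm1* overlaps *Tex52* on the same strand. *Mcm7* also holds the *Mir25*, *Mir93* and *Mir106b* genes. *Kif11* holds processed pseudogenes, *Cenpf* holds one on the opposite strand, and *Cdc25c* overlaps *Gm3550* on the opposite strand. The values of these genes are uncertain to that extent.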

How the data were processed

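RNA of 9 cultures was sequenced as stranded, paired-end mRNA libraries. Per the methods and labels, the authors trimmed reads with BBDuk, aligned them to GRCm38 with STAR 2.7.1a and deposited RSEM 1.3.1 expected counts and TPM per gene. The strand setting is not given in the sources used here. The methods name no annotation release, and the study's reporting summary names a Gencode release and a second RSEM version. Here, 55230 of 55471 gene IDs were found in GENCODE M21, which gave symbols and positions.

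Expected counts were rounded. Genes were filtered by group (filterByExpr), scaled by TMM and tested in 1 fit of all 9 cultures (edgeR 4.0.16, quasi-likelihood, group only) with Benjamini-Hochberg adjustment over 15362 genes (biological coefficient of variation 5.11%, 6 residual degrees of freedom). Replicates differed beyond sampling noise (chi-square per degree of freedom 4.25 to 8.1). TPM served only to compare genes with each other, and RSEM's transcript length was read for the members. Alternatives were other scalings (DESeq2 size factors, library size only), other filters, DESeq2 1.42.0, the 2 groups alone, a replicate block and each culture left out. Values in every culture were given for members fixed by name, for the member of each role with the highest TPM or the largest change with OSCAR, and for the 5 with the largest change with 5-ASA. From each other list the 3 largest changes each way (mean CPM 1 or higher) and all CDK inhibitors were named. The members and lists were chosen with earlier results of these data known.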

Additional observations from a re-analysis of the deposited data

How the results depend on the processing

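The number of members called from Control to Ad-OSCAR was 44 to 45 over 16 alternative settings (44 under a minimum of 10 counts in every culture, which leaves 45 tested), and 45 genes were called in each setting that tested them. Against Control, the 5-ASA cultures differed in 45 to 46 members. From Ad-OSCAR to the 5-ASA cultures 17 to 26 members were called, 17 to 22 with 1 culture left out, 19 with DESeq2, 22 with the replicate block and 26 with library size only; 15 were called in all 17 settings, 11 in some and 20 in none, and 0 rose in any. Library size only moved the median of all genes by 0.13 from Control to Ad-OSCAR, and the medians of the members to -1.45 (S phase) and -3.37 (G2/M) there, and to -0.31 (S phase) and -0.49 (G2/M) from Ad-OSCAR to the 5-ASA cultures. With 1 culture left out, the G2/M median from Control to Ad-OSCAR was -3.55 to -3.46. For 5-ASA, *Foxm1* was at -0.04 with library size only and -0.05 to 0.11 with 1 culture left out (below 0 without Ad-OSCAR replicate 2), and *E2f1* at -0.07 and -0.02 to 0.02 in the same settings, all uncalled. *Mki67* and *Top2a* passed with library size only (-0.35 and -0.26, edgeR adjusted p = 0.0195 and 0.0166). Replicate numbers were not used as pairs in the main fit: deviations of same-numbered cultures correlated at -0.137 to 0.0883 (mean -0.025). With 3 cultures per group this cannot show whether same-numbered cultures shared a cell preparation. *Cdc25c*, *Ttk*, *Cdc6* and *Bub1* had as few as 7, 19, 20 and 22 counts in a 5-ASA culture, which limits what could be detected there.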
